A study of Mus musculus with 12 samples.

Results

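The receptors for the cytokines IL3, IL5 and GM-CSF form a family that shares a signalling beta chain, and its 5 mouse genes were followed over the 12 arrays of the study. Csf2rb codes for the common beta chain and Csf2rb2 for a second beta chain, which in the mouse serves the IL3 receptor alone. Csf2ra, Il3ra and Il5ra code for the alpha chains that bind GM-CSF, IL3 and IL5. The members were chosen by gene symbol from the 18820 genes that the array's annotation names, with earlier results of these data known. Each of the 5 has 1 probe set. All 5 passed the filter on dim probe sets, which kept 12337 genes with a mean intensity above 60.1.

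In this family an alpha chain gives a receptor its ligand, while the beta chain carries the kinase JAK2 into the complex and, through it, activates STAT5. The signals keep myeloid progenitors alive and dividing, and they drive mast cells and basophils (IL3), eosinophils (IL5) and granulocytes with macrophages (GM-CSF). Csf2rb and Csf2rb2 lie next to each other in the mouse genome and are close copies, so a probe for one may read RNA of the other, and how far that happened on these arrays was not tested.

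The arrays profiled EML1, a blood progenitor line derived from marrow of male BDF1 mice by infection with the retroviral vector LRARalpha403SN, which all groups share. The lentiviral vector was pWPI, empty or with TEL-AML1, a fusion protein of ETV6 and RUNX1 that marks a form of childhood B-cell precursor leukaemia. For each vector 2 arrays came from untreated cells, 2 from cells given IL7 and FLT3L for 5 days and 2 from cells given them for 7 days. Per the labels' protocol, lymphoid culture ran on OP9 stromal cells in another medium, with 10 ng/ml of IL7 and 80 ng/ml of FLT3L, so a treated culture differs from an untreated one in more than its cytokines. The design compares cells infected with TEL-AML1 and cells infected with the empty vector, before and during that treatment. Other differences between these infected cells cannot be told apart from an effect of TEL-AML1. Below, higher, lower or rose with TEL-AML1 only describes that comparison.

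Array medians lay between 68.1 and 72.9. Progenitor markers were present throughout, with Kit, the stem cell factor receptor, at 2186 to 2744 on the 12 arrays. The 22 stroma markers with a probe set summed to 2129 to 2611 on the 4 untreated arrays, 7632 and 10321 at day 5 and 2727 and 6233 at day 7 with the empty vector, and 3933 and 8640 at day 5 and 2487 and 4469 at day 7 with TEL-AML1. The sum of the stroma markers therefore differed between the arrays of a treated group, and how much of it came from OP9 cells was not tested. In such bulk samples fewer cells of a type and less RNA per cell cannot be told apart. The early B lineage markers summed to 551 to 875 over the 12 arrays. Whether the replicates came from separate cultures is not in the labels, so p-values measure only how these arrays spread, and that spread may be technical.

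RefSeq promoter sequences of GRCm38.p6 were at hand for 4 of the 5 genes, Csf2rb being the one without. The 250 bases before the annotated start are shown for Csf2rb2, which was higher with TEL-AML1 at day 7, and for Il5ra, which was higher with it in untreated cells. Lower case is used except for matches to the motif letters named in the next paragraph.
Csf2rb2, chr15:78305722-78305971, minus strand: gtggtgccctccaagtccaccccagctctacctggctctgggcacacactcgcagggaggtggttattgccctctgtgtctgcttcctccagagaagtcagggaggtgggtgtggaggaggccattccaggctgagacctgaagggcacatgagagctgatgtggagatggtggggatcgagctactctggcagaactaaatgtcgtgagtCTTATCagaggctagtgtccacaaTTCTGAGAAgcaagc
Il5ra, chr6:106749038-106749287, minus strand: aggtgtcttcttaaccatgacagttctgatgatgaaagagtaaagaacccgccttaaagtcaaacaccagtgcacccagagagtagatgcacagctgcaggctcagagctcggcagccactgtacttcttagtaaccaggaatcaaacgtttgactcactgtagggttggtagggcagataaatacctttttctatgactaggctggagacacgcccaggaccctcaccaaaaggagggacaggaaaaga

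Both strands were searched for TGTGGT and TGCGGT, the letters that RUNX factors prefer, GATAAG for GATA factors, GGAAGT for ETS factors, TTCNNNGAA for STAT factors and TTGCNNAA for CEBP factors. Csf2rb2 held the GATA letters on the opposite strand, beginning 39 bases before the start, and the STAT letters, beginning 15 bases before it. The table's windows for Il3ra and Csf2ra belong to a start inside the gene's annotated span, so another transcript begins further upstream, and they are not printed. Il3ra held the ETS letters 139 bases and the CEBP letters 134 bases before that start, and these 2 matches share 1 base. Il5ra and Csf2ra held none of the 6. Over 32851 mouse promoter windows of the same length, 14% held TGTGGT, 5.1% TGCGGT, 6.55% GATAAG, 19.7% GGAAGT, 7.02% TTCNNNGAA and 9.56% TTGCNNAA. A match describes the letters and is not a binding site.

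Of the members, the beta chain genes had the largest differences between the vectors at day 7. In the intensity of its probe set, Csf2rb stood at 1319 and 1326 on the untreated empty-vector arrays, at 1191 and 1448 at day 5 and at 1082 and 1115 at day 7. With TEL-AML1 it stood at 1673 and 1702 untreated, 1613 and 1496 at day 5 and 1875 and 2002 at day 7. Each of the 6 TEL-AML1 arrays was thus brighter than each of the 6 empty-vector arrays, a separation in that direction that 3.55% of tested genes showed. Of the 5 pairs of neighbouring groups in the order of its means, from empty vector at day 7 to TEL-AML1 at day 7, only empty vector at day 5 and untreated overlapped. How many such pairs overlap in other tested genes was not counted, so these counts only describe each member.

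Csf2rb2 had the same groups at both ends of its order, but its vectors overlapped. It stood at 1374 and 1312 untreated, 1202 and 1210 at day 5 and 1091 and 1069 at day 7 with the empty vector. The TEL-AML1 arrays gave 1535 and 1547 untreated, 1533 and 1272 at day 5 and 1775 and 1920 at day 7. The second day 5 array of TEL-AML1, at 1272, fell below both untreated empty-vector arrays, so the vectors did not separate over all conditions. Of its 5 neighbouring pairs, the one that overlapped was empty vector untreated with TEL-AML1 at day 5.

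**Figure D1:**
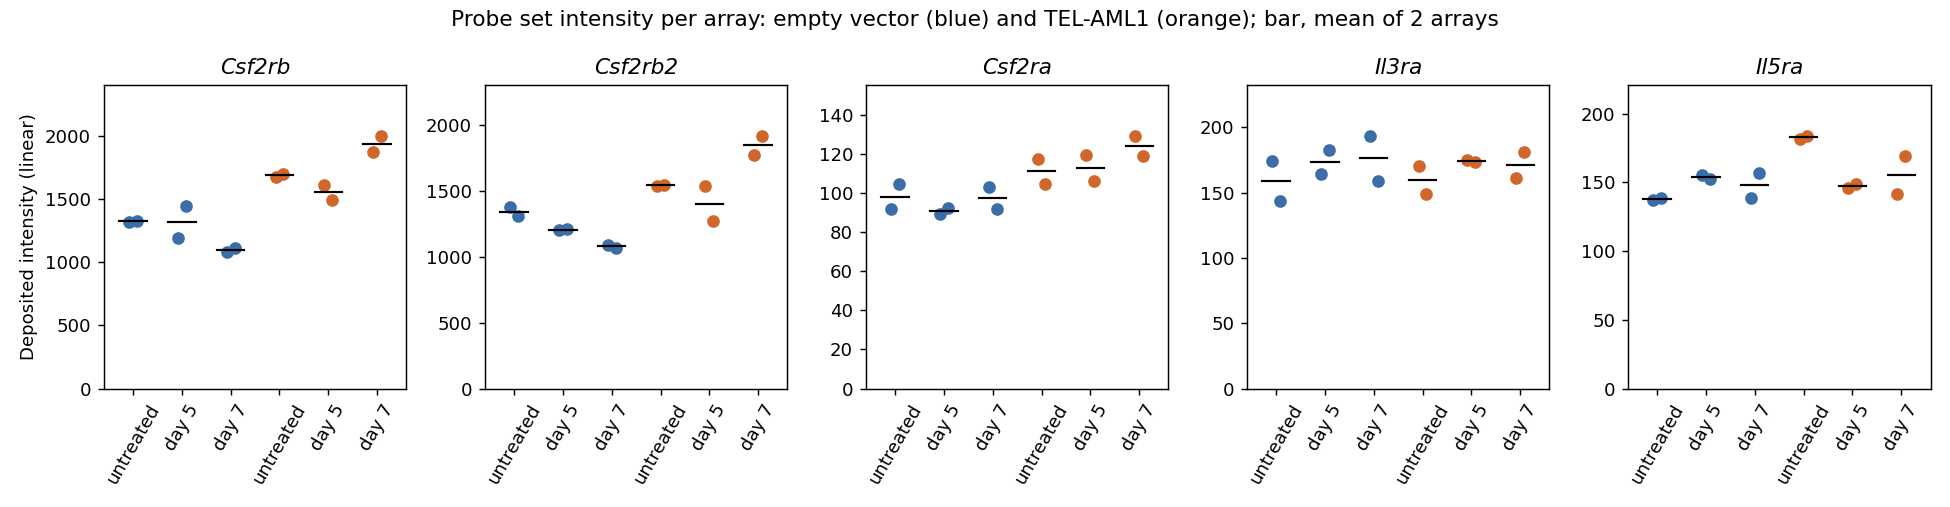
Deposited linear intensity of the probe set of each receptor gene (vertical axes from 0, scaled per gene) on the 12 arrays, by vector and condition; points are arrays and bars are means of 2 arrays. Csf2rb and Csf2rb2 are brightest on the TEL-AML1 arrays of day 7 and dimmest on the empty-vector arrays of day 7, Csf2ra is higher on TEL-AML1 arrays by a small step, the Il3ra groups overlap their neighbours in the order of means, and Il5ra is highest on the untreated TEL-AML1 arrays.

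The alpha chain genes differed less between groups than the beta chain genes at day 7. Csf2ra stood at 91.7 and 104 untreated, 89.3 and 92.3 at day 5 and 103 and 91.7 at day 7 with the empty vector. The TEL-AML1 arrays gave 118 and 104 untreated, 119 and 106 at day 5 and 129 and 119 at day 7. Its 6 TEL-AML1 arrays also lay above its 6 empty-vector arrays, by the narrow margin of 104.46 against 104.42. Il3ra ranged from 144 to 194 with a median of 172 over the 12 arrays, and all 5 pairs of neighbouring groups in its order overlapped. Il5ra stood at 137 and 139 untreated, 155 and 152 at day 5 and 139 and 157 at day 7 with the empty vector. On the TEL-AML1 arrays it stood at 182 and 184 untreated, 146 and 149 at day 5 and 142 and 169 at day 7. The untreated TEL-AML1 arrays of Il5ra were its highest and the untreated empty-vector arrays its lowest, and neither group overlapped another. The share of all tested genes with such a pattern was not counted. The treated groups between them overlapped their neighbours in the order of means.

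Differences between groups are given as log2(intensity + 16) with the standard error after ±, and passing the test means an adjusted p under 0.05 from limma with Benjamini-Hochberg adjustment over the 12337 genes. At day 7, Csf2rb rose with TEL-AML1 against the empty vector by 0.81 ± 0.094, which is 1.75-fold (95% interval 0.60 to 1.02, adjusted p = 0.000448). Csf2rb2 rose by 0.77 ± 0.091, or 1.7-fold (interval 0.56 to 0.97, adjusted p = 0.000528). Leaving out any 1 of the 4 day 7 arrays left both calls in place, with adjusted p no higher than 0.00666. Csf2ra, at 0.31 ± 0.095, did not pass (adjusted p = 0.0677), nor did Il5ra at 0.06 ± 0.088 (0.727) or Il3ra at -0.03 ± 0.118 (0.897). So 2 of 5 members were higher and none lower, where 11.3% of all tested genes passed either way and 5.28% were higher. These 2 are the close copies whose probes may read each other, so they may not be separate calls. The members were also chosen with earlier results of these data known. The median of the 5 differences was 0.31 against -0.03 for all tested genes. A larger increase than that of Csf2rb was seen for 157 tested genes (1.27%), and 176 (1.43%) exceeded Csf2rb2. With replicate pairs as a block inside each condition, the genes that passed at day 7 numbered 2215 rather than 1392, while the same 2 members passed.

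In untreated cells the members that passed were Il5ra and Csf2rb. Il5ra was higher with TEL-AML1 by 0.37 ± 0.088 (adjusted p = 0.0247) and Csf2rb by 0.35 ± 0.094 (adjusted p = 0.0456), both about 1.3-fold. Neither call held without any 1 of the 4 untreated arrays, with adjusted p of 0.132 to 0.164 for Il5ra and 0.191 to 0.248 for Csf2rb, although the differences stayed at 0.36 to 0.38 and 0.34 to 0.36. The call of Csf2rb also ended with arrays centred on their medians (adjusted p = 0.0587) and with a pseudocount of 1 (0.0553). Csf2rb2 differed by 0.20 ± 0.091 (0.278, and 0.0444 with array weights), Csf2ra by 0.16 ± 0.095 (0.461) and Il3ra by 0.01 ± 0.118 (0.991), none of which passed in the fit of all arrays with equal weight. Here 8.9% of tested genes passed either way and 2.74% were higher, against 2 of 5 members higher, and the members' median difference was 0.20 against -0.01 for all genes.

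At day 5 no member passed in limma. Csf2ra differed by 0.27 ± 0.095 (adjusted p = 0.139), Csf2rb by 0.24 ± 0.094 (0.177), Csf2rb2 by 0.21 ± 0.091 (0.223), Il3ra by 0.01 ± 0.118 (0.976) and Il5ra by -0.05 ± 0.088 (0.787). Before adjustment, limma's values for Csf2ra, Csf2rb and Csf2rb2 were under 0.05 (0.0178, 0.0283 and 0.0435). Among all tested genes 7.32% passed either way. Without the second day 5 array of the empty vector, where Csf2rb read 1448, its difference was 0.38 and passed (adjusted p = 0.0486). The replicate block inside each condition raised the genes that passed at day 5 from 903 to 1839 and still included no member.

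**Figure D2:**
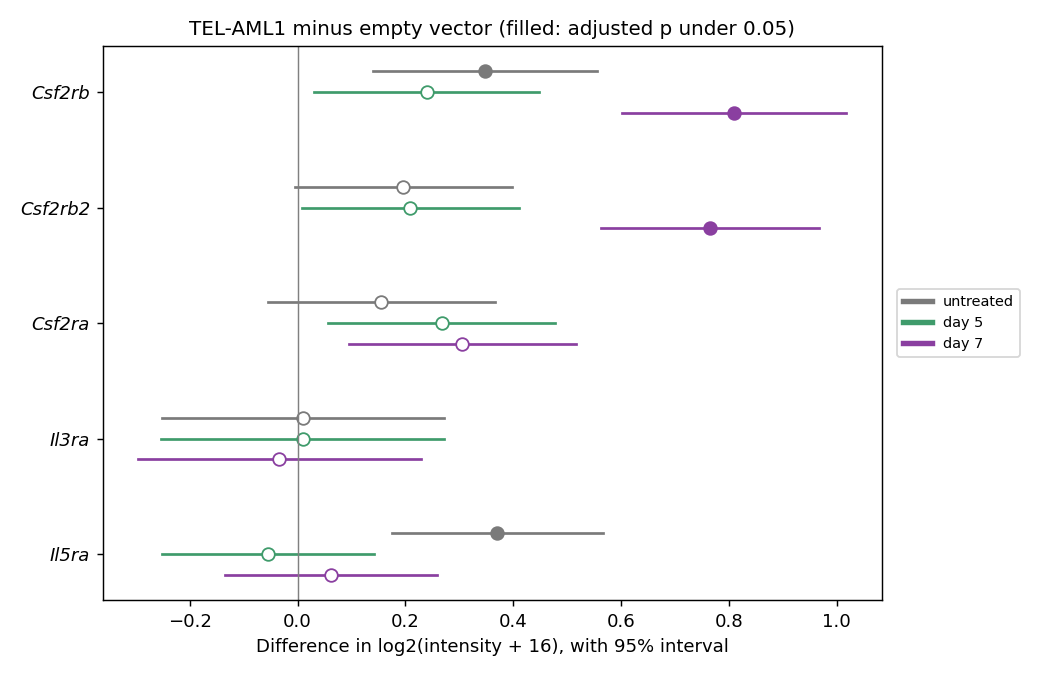
Difference between TEL-AML1 and the empty vector in log2(intensity + 16) for each receptor gene, untreated and at day 5 and day 7; points are estimates from the fit of all arrays, lines their 95% intervals, and filled points passed the test. The day 7 intervals of Csf2rb and Csf2rb2 begin at 0.60 and 0.56, while those of Il3ra span 0 in each condition.

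Compared with untreated cells, the beta chain genes at day 7 gave 1 call, the fall of Csf2rb2 with the empty vector. From untreated to day 7 with the empty vector, Csf2rb2 fell by 0.31 on the log2 scale, with a standard error of 0.091 (adjusted p = 0.0448), and Csf2rb differed by -0.26 ± 0.094 (0.0831). In that comparison 15.5% of tested genes passed and 9.19% were lower, so the members' 1 call of 5 is read against that background and is no result about them. The call of Csf2rb2 ended without any 1 of the 4 arrays (adjusted p = 0.0918 to 0.201) and under quantile normalization (0.0766), whereas centring the arrays on their medians made Csf2rb pass as well (-0.33, adjusted p = 0.0369). With TEL-AML1 the day 7 differences were 0.26 ± 0.091 for Csf2rb2 (0.117) and 0.20 ± 0.094 for Csf2rb (0.25), neither of which passed while 7.85% of tested genes did. Both vectors' own arrays moved apart without overlap: the day 7 arrays lay below the untreated ones with the empty vector (30.9% of genes) and above them with TEL-AML1 (29.3%). The difference of the day 7 responses was 0.57 ± 0.128 for Csf2rb2 (unadjusted p = 0.00122, adjusted p = 0.224 in limma) and 0.46 ± 0.133 for Csf2rb (0.00573 and 0.34). Only 10 of the 12337 genes (0.0811%) passed that comparison, and neither beta chain gene was among them.

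The alpha chain genes did not pass in any comparison of treated with untreated cells. With TEL-AML1, Il5ra differed from untreated cells by -0.28 ± 0.088 at day 5 (adjusted p = 0.189) and -0.22 ± 0.088 at day 7 (0.17). With the empty vector Il5ra differed by 0.14 ± 0.088 at day 5 (0.325) and 0.09 ± 0.088 at day 7 (0.527). The differences between those responses were -0.43 ± 0.125 at day 5 (unadjusted p = 0.00651, adjusted p = 0.565 in limma) and -0.31 ± 0.125 at day 7 (0.0325 and 0.505). At day 5, 0.0324% of tested genes passed that comparison and no member did. Csf2ra differed from untreated cells by -0.09 at day 5 and -0.01 at day 7 for the empty vector and by 0.02 and 0.14 for TEL-AML1, and Il3ra by 0.12, 0.14, 0.12 and 0.09 in the same order, each with a standard error of 0.095 or 0.118. At day 5 against untreated, 15.6% of tested genes passed with the empty vector and 1.6% with TEL-AML1, and no member did in either. These comparisons share their untreated arrays with the comparisons between vectors.

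**Figure D3:**
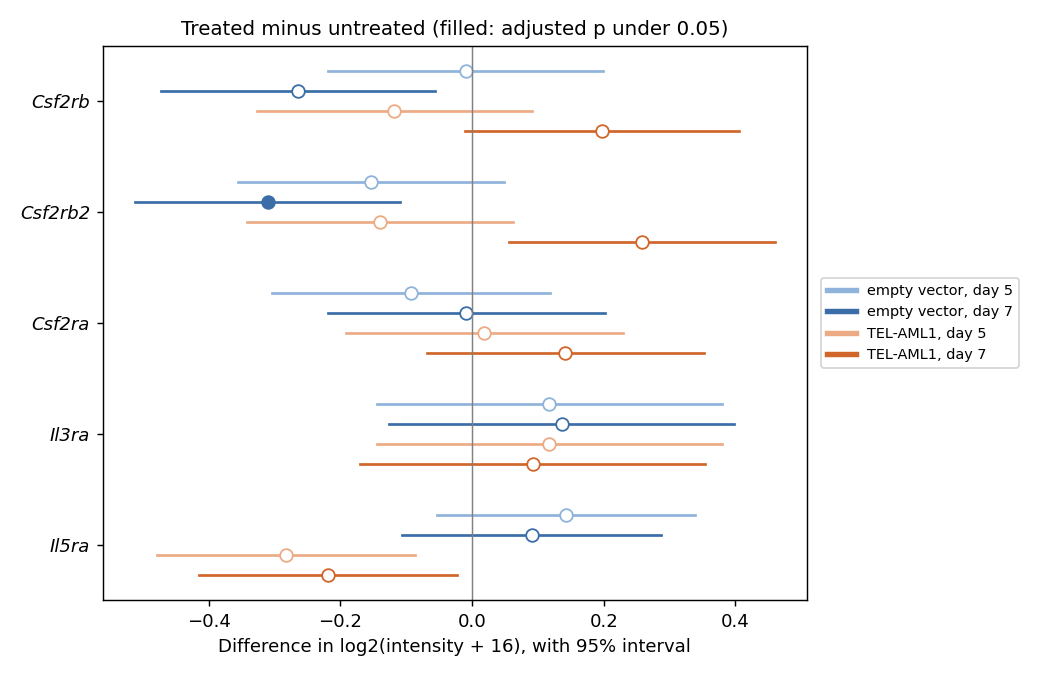
Difference of day 5 and day 7 from untreated cells in log2(intensity + 16) for each receptor gene and vector, with 95% intervals; the filled point passed the test. Csf2rb2 at day 7 with the empty vector, at -0.31, is the only filled point, and the beta chain genes lie to the right of 0 at day 7 with TEL-AML1.

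Csf2rb and Csf2rb2 followed each other closely over the arrays. The correlation of their log2 values was 0.942 over the 12 arrays (Spearman 0.93) and 0.974 over the 6 group means, and 2 other tested genes were at least as like Csf2rb as Csf2rb2 was. Arrays share their groups, and these values describe the pattern without a test. The per-array log2 difference of Csf2rb from Csf2rb2 averaged 0.12 with TEL-AML1 and 0.04 with the empty vector. This unequal change of 0.08 did not pass an exact two-sided permutation test that moved vector labels freely within conditions (p = 0.185). The smallest p that such free relabelling allows is 0.00926. The test did not keep same-numbered arrays of the vectors together as pairs, although these deviated together within each condition. It therefore cannot decide whether the change is unequal, and a paired relabelling was not tested. Leaving out each of the 12 arrays in turn gave an unequal change of 0.031 to 0.120. The highest of these came without the second day 5 array of the empty vector. Csf2ra correlated with Csf2rb at 0.773 and with Csf2rb2 at 0.785, Il5ra with Csf2rb at 0.441, and Il3ra with Csf2rb at -0.05.

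**Figure D4:**
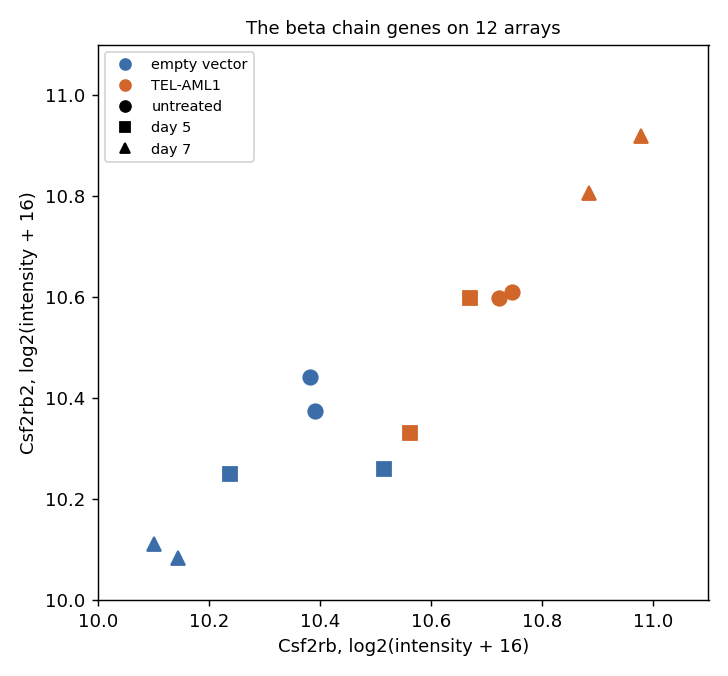
Log2(intensity + 16) of Csf2rb against Csf2rb2 on the 12 arrays, with vector by colour and condition by symbol. The arrays run along one diagonal with a correlation of 0.942, empty vector at day 7 at the low end and TEL-AML1 at day 7 at the high end.

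By likeness over the 12 arrays, the genes nearest to Csf2rb outside the family were Lgals8, which codes for a galectin (r = 0.946), the granzyme gene Gzmb (0.944), Rusc2 (0.933), the Y-linked gene Uty (0.931) and Kifbp (0.928). Lgals8, Gzmb and Uty were higher with TEL-AML1 in each condition, by 0.62 ± 0.078, 0.67 ± 0.078 and 1.93 ± 0.171 at day 7. Uty differed by 1.35 ± 0.171 already in untreated cells, and the cause was not tested. Rusc2 passed at day 7 alone, and Kifbp in untreated cells and at day 7, both higher with TEL-AML1. Csf2rb2 was most like Adk, the adenosine kinase gene (0.951), Esyt2 (0.930), Fbxo38 (0.920), Rusc2 (0.912) and Kifbp (0.908). Csf2ra was most like the potassium channel subunit gene Kcne3 (0.945), Trim62 (0.944), the mast cell protease gene Mcpt2 (0.928), the histamine-making Hdc (0.925) and Ublcp1 (0.920). Il5ra was most like the dehydrogenase gene Dhrs9 (0.874), Cobll1 (0.814), the mRNA decay gene Zfp36 (0.808), Cwc25 (0.799) and the immediate early gene Egr1 (0.798). For Il3ra the nearest, Cryba2, reached 0.849, followed by Zfp87, Ccdc50, Ppp1r13l and Elmod3 down to 0.822.

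Around the beta chain genes on chromosome 15, no tested gene lies between them in the RefSeq order, and the 10 tested genes nearest to the pair were looked at after the values were seen. At day 7, 1 of the 10 was higher with TEL-AML1 and none lower, where 5.28% of all tested genes were higher. The 10 differences ran from -0.06 to 0.50, and the median over the 502 tested genes of the chromosome was 0.03. Rac2, which codes for a small GTPase of blood cells, was the one that passed, at 0.45 ± 0.077 untreated, 0.50 ± 0.077 at day 5 and 0.50 ± 0.077 at day 7 (adjusted p = 0.00433, 0.00335 and 0.00223). Ncf4, a subunit gene of the phagocyte oxidase and the tested neighbour on the Csf2rb2 side, passed at day 5 (0.61 ± 0.108, adjusted p = 0.00725) and not at day 7 (0.36 ± 0.108, 0.0626). Tex33, on the Csf2rb side, differed by -0.06 ± 0.119 at day 7 (0.791).

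The ligands of the family were at the dim end of the arrays. Il3 ranged from 41.1 to 50.7, Il5 from 38.4 to 42.8 and Csf2, the GM-CSF gene, from 44.1 to 55.7, all with a mean under the filter, so they were not tested. Of the 15 ligands and growth factors listed, 14 had a probe set and 6 were tested. At day 7, Flt3l was lower with TEL-AML1 (-0.76 ± 0.121, adjusted p = 0.00275) and Il4 higher (0.30 ± 0.072, 0.0249), with 4 not passing and a median of 0.08. In that comparison 11.3% of all tested genes passed. Flt3l ran from 237 to 321 on the TEL-AML1 arrays and from 351 to 574 on those of the empty vector. From untreated to day 7 with the empty vector, Il15 (1.45 ± 0.282, adjusted p = 0.00986) and Flt3l (0.47 ± 0.121, 0.0277) rose.

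Other receptors give the family a frame. Of 32 listed, 28 had a probe set and 22 were tested. At day 7, 4 were higher and 2 lower with TEL-AML1 (median difference 0.06), where 11.3% of all tested genes passed either way. The interferon gamma receptor genes Ifngr1 (1.15, 95% interval 0.87 to 1.42) and Ifngr2 (1.14, 0.81 to 1.48) differed more than the beta chain genes, and the other 20 less. Il4ra, the IL4 receptor alpha chain, was higher by 0.66 ± 0.122 and Il2ra by 0.55 ± 0.084, while Il9r (-0.42 ± 0.092) and the shared chain gene Il6st (-0.34 ± 0.086) were lower, the last 2 named after their values were seen. Kit did not pass, at 0.04 (-0.18 to 0.26), nor did Epor, the erythropoietin receptor, at 0.29 ± 0.121. For the cytokines of the treatment, Flt3 was dim at 45.3 to 55.9 and not tested, and Il7r read 51.7 to 73.9 on 11 arrays and 159 on 1 TEL-AML1 array of day 7, with no call (0.48 ± 0.324, adjusted p = 0.417). Il2rg, the common gamma chain, had no probe set under that symbol in the annotation used, so it was not analysed.

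**Figure D5:**
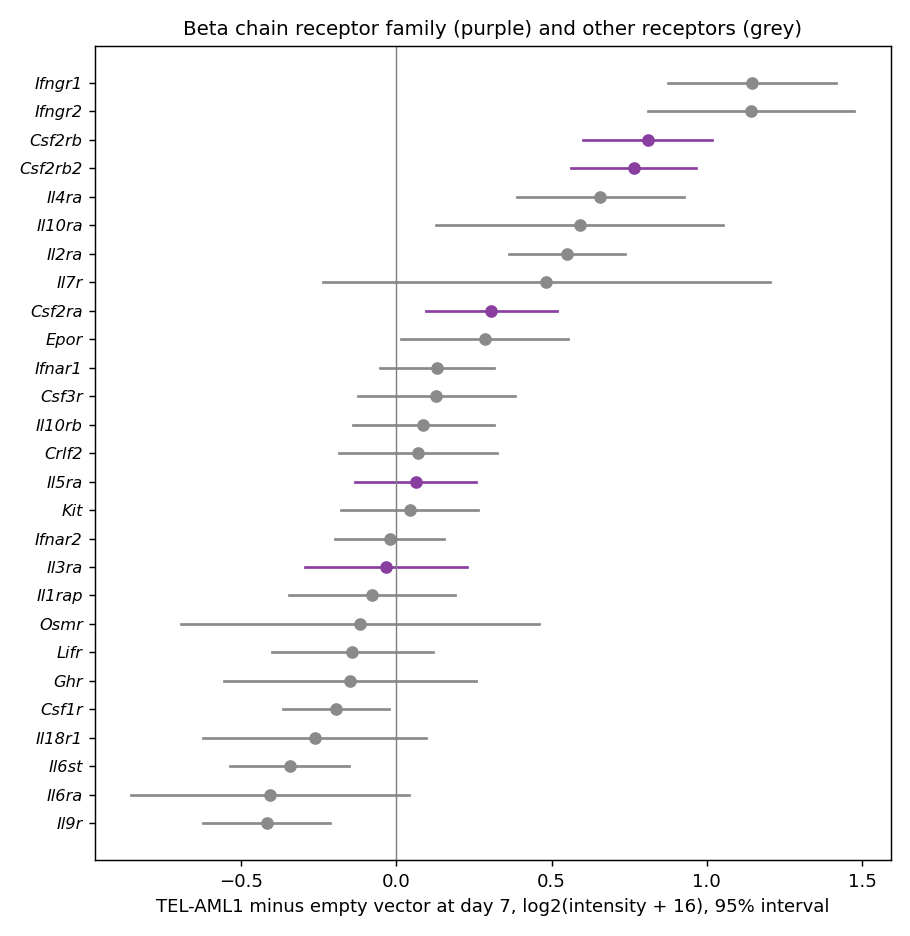
Difference between TEL-AML1 and the empty vector at day 7 in log2(intensity + 16) with 95% intervals for the beta chain receptor family (purple) and the 22 other tested receptors (grey), in order of size. Csf2rb at 0.81 and Csf2rb2 at 0.77 come after Ifngr1 and Ifngr2, and Il3ra and Il5ra lie near 0.

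Among the kinases and adaptors below the beta chain, 1 of 20 tested genes passed at day 7 between the vectors, against 11.3% of all tested genes. It was lower with TEL-AML1, and the median difference of the 20 was 0.08. The one that passed was Ptpn11, the phosphatase SHP2, at -0.39 ± 0.073 (adjusted p = 0.00725). Ptpn11 lies in the distal part of chromosome 5, from Taok3 to Rfc3, where the median over the tested genes was -0.46 untreated and -0.38 at day 7, over 331 genes, and no member of the family lies there. At day 7 the Jak2 arrays read 625 and 808 for the empty vector against 846 and 904 for TEL-AML1, a difference of 0.29 ± 0.115 that did not pass (0.145). Stat5a (0.04 ± 0.076) and Stat5b (0.17 ± 0.074) did not pass either. From untreated to day 7 with the empty vector, the exchange factor gene Vav1 (-0.54 ± 0.071), the adaptor gene Shc1 (-0.41 ± 0.111) and the phosphatase gene Inpp5d (-0.26 ± 0.075) fell, and Pik3r1, a regulatory subunit of PI3 kinase, rose (0.36 ± 0.088).

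Among STAT5 targets, 3 of 12 tested genes rose at day 7 with TEL-AML1, where 5.28% of all tested genes were higher. None of the 12 fell, and their median was 0.02. The 3 were the kinase genes Pim2 (0.81 ± 0.137, adjusted p = 0.00388) and Pim1 (0.78 ± 0.209, 0.037) and the feedback inhibitor gene Cish (0.34 ± 0.071, 0.0118). In untreated cells Pim1 was higher (0.91 ± 0.209) and the cyclin gene Ccnd2 lower (-0.98 ± 0.117). Of 9 tested factors known to act on beta chain genes or in the same lineages, Gata1 (1.43 ± 0.187), Gata2 (0.61 ± 0.117) and Cebpa (0.46 ± 0.111) were higher at day 7 and Mitf lower (-0.32 ± 0.086).

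Markers of cells that carry these receptors differed by cell type. Of all tested genes, 5.28% were higher with TEL-AML1 at day 7 and 2.74% in untreated cells, while 7.32% passed either way at day 5. Of 12 tested mast cell, basophil and eosinophil markers, 6 rose and none fell at day 7 (median 0.81), 5 and none in untreated cells (0.91) and 4 and none at day 5 (0.58). The 16 with a probe set summed to 7447 and 7735 untreated, 7934 to 8524 at day 5 and 7497 and 9868 at day 7 with the empty vector. The TEL-AML1 sums were 10260 and 10301 untreated, 9671 and 13351 at day 5 and 12190 and 15168 at day 7. Cpa3, a mast cell carboxypeptidase, did not pass, at 3922 and 4636 against 4386 and 4465 at day 7, and Fcer1a, Prg2, Epx and Ccr3 were under the filter. Of 7 tested granulocyte markers 1 was higher and none lower at day 7, and the 13 with a probe set summed to 5633 and 5649 with the empty vector against 5409 and 5471 with TEL-AML1. Of 10 tested monocyte, macrophage and dendritic markers 2 were higher and 1 lower, and the 15 with a probe set summed to 1665 and 1767 against 1971 and 2191. The part of these cells in the difference of Csf2rb and Csf2rb2 was not tested. With the mean of the stroma markers as a covariate, the day 7 differences were 0.83 for Csf2rb and 0.81 for Csf2rb2, both passing.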

How the data were processed

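The authors deposited a linear intensity for each of 35556 probe sets on each of 12 arrays; per the labels' protocols, biotin-labelled cRNA was hybridised by the Affymetrix procedure, and background correction, summarisation and normalization are not given in the sources used here. Probe sets were named from the platform annotation where they list 1 gene (21218; 1881 list several and 12457 none), with the brightest kept per gene. The fit was 1 model of 6 group means in limma 3.58.1 (R 4.3.3) on log2(intensity + 16), which understates fold changes of dim genes. It had 6 residual and 4.22 prior degrees of freedom and gave 9 contrasts. A run on simulated data drew independent noise for each array, without the shared deviation of same-numbered arrays described below. That run therefore does not show how the fit behaves on these arrays. Genes named beside the members are up to 4 called genes of each list in the day 7 comparisons, set receptors, the brightest markers and the 5 most like genes; lineage regulators, untreated STAT5 targets and markers under the filter were named after their values were seen. Members and lists were chosen with earlier results of these data known. Same-numbered arrays of the 2 vectors deviated together within each condition (correlations 0.433, 0.543 and 0.377) while the 12 pairs of groups across conditions gave -0.241 to 0.156, 2 of them over 0.1. The labels state no pairing, and the numbers were taken as pairs within a condition only. Alternatives covered scaling, filter, pseudocount, probe sets, variance, weights, groups fitted, pairing and stroma. Each array was also left out in turn, for the comparisons that its group enters.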

Additional observations from a re-analysis of the deposited data

Results flagged for a closer look

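The arrays of each vector moved in opposite senses from untreated cells for 3 receptor genes. How many of all tested genes did so was not counted, so this is a description and no result about the family. At day 7 alone, 30.9% of tested genes had both empty-vector arrays below their untreated arrays. With TEL-AML1, 29.3% had both day 7 arrays above their untreated arrays. For Csf2rb at day 7, both empty-vector arrays fell below and both TEL-AML1 arrays rose above their untreated arrays, a difference between responses of 0.46, and for Csf2rb2 the same held with 0.57. For Il5ra both empty-vector arrays lay above and both TEL-AML1 arrays below their untreated arrays, with differences of -0.43 at day 5 and -0.31 at day 7. None of these 4 passed limma's test of the difference (adjusted p = 0.34, 0.224, 0.565 and 0.505). With 2 arrays a group no single array could be tested as standing apart from its group.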

How the results depend on the processing

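The day 7 calls of Csf2rb and Csf2rb2 held under all 13 other settings (adjusted p up to 0.021 and 0.0228). Without 1 of the 4 day 7 arrays the differences were 0.76 to 0.86 for Csf2rb and 0.71 to 0.82 for Csf2rb2. The arrays of other conditions were not left out for this comparison. The number of members that passed in untreated cells, 2, became 1 with arrays centred, with a pseudocount of 1 and with the replicate block over all arrays, 3 with array weights, where Csf2rb2 passed, and 0 without any 1 array. At day 5 it was 0 to 1 without 1 array. At day 7 against untreated with the empty vector, 1 became 0 with array weights, quantile normalization, a pseudocount of 1, the replicate block over all arrays, a fit of the compared groups alone or without any 1 array, and 2 with arrays centred; with TEL-AML1, 0 became 1 with array weights. The block within each condition changed no member's call. With the stroma covariate, the differences of Il5ra from untreated cells with the empty vector turned to -0.071 at day 5 and -0.016 at day 7; the cause was not tested. The unequal change of the beta chain genes ran from 0.031 to 0.120 without 1 array. Differences smaller than their standard error were given no direction. Over all genes, calls between the vectors numbered 1098 untreated, 903 at day 5 and 1392 at day 7. They were 2606 untreated and 899 at day 7 with array weights, 2374 untreated and 327 and 371 at day 5 and day 7 with the compared groups alone, 1839 at day 5 and 2215 at day 7 with the block within each condition, and 477 to 533, 453 to 800 and 757 to 1730 without 1 array. Calls at day 5 against untreated cells, 1926 for the empty vector and 198 for TEL-AML1, became 392 and 81 with the stroma covariate, 469 for TEL-AML1 with array weights, and 202 to 1487 and 80 to 294 without 1 array. Calls at day 7, 1909 and 968, became 290 and 1645 with the compared groups alone, 2230 for TEL-AML1 with array weights, and 298 to 2799 and 200 to 512 without 1 array. Over all settings, calls for the differences of responses, 4 at day 5 and 10 at day 7, ranged from 1 to 16 and from 0 to 75. Csf2ra lies nearest the filter of the members, and 2 arrays a group limit each value.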
